A study of Mus musculus with 6 samples.

Results

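The type I interferon antiviral effector genes are the genes that an interferon signal switches on to block virus entry, replication and release, taken here together with the 2 chains of the receptor that receives the signal. They were chosen by gene symbol, as 43 named genes of the deposited table of 52459 genes, and all 43 were found and passed the filter on low counts. RNA was sequenced from bone marrow derived macrophages of the mouse strain C57BL/6, grown in cRPMI medium with the myeloid growth factor GM-CSF. At day 7 of culture, 3 samples received vehicle (control) and 3 received piceatannol, a plant stilbene widely used to inhibit Syk kinase, and all were left overnight. No interferon, virus or other stimulus is named in the labels, and they give no dose, vehicle composition, age or sex. They also leave unsaid whether replicate libraries stem from different mice or dishes, and the p-values therefore reflect only the spread between these libraries, which may be technical.

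Type I interferons (interferon beta and the interferon alphas) bind the receptor of Ifnar1 and Ifnar2 chains, whose kinases Jak1 and Tyk2 phosphorylate STAT proteins. With Irf9 these form the factor ISGF3, which binds a DNA element called ISRE in front of interferon-stimulated genes. Macrophages are known to keep part of this programme on at a low level without infection, through a small constitutive interferon signal.

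With piceatannol, 38 of the 43 genes fell, 3 rose and 2 did not pass the test (edgeR's quasi-likelihood test, Benjamini-Hochberg adjusted p under 0.05 over all 15380 genes tested). Over all tested genes 38.3% fell and 38.8% rose, so the share of members that fell was 88.4% against 38.3%, a description with no test of the list. The median log2 fold change over the members was -1.82, and over all tested genes 0.01. At least 2-fold falls were found for 29 members and an at least 2-fold rise for 1, where 16.6% and 17.5% of all tested genes moved as far in these directions. The 3 values of the piceatannol group lay below all 3 control values for 38 members and above them for 3, beside 39.2% and 39.9% of all tested genes (79% in either direction). Groups that do not overlap, as given below for single genes, were thus the usual case in these data. Per library, the members took 0.560%, 0.544% and 0.651% of all counts in control and 0.255%, 0.253% and 0.255% with piceatannol. The 3 genes that rose were Rsad2 (2.79 as log2 fold change), Oasl1 (0.91) and Trim25 (0.58), and the 2 that did not pass were Isg15 (0.28) and Ifnar2 (-0.03). The largest falls were those of Oas2 (-3.36), Oasl2 (-3.14) and Rtp4 (-3.05).

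**Figure D1:**
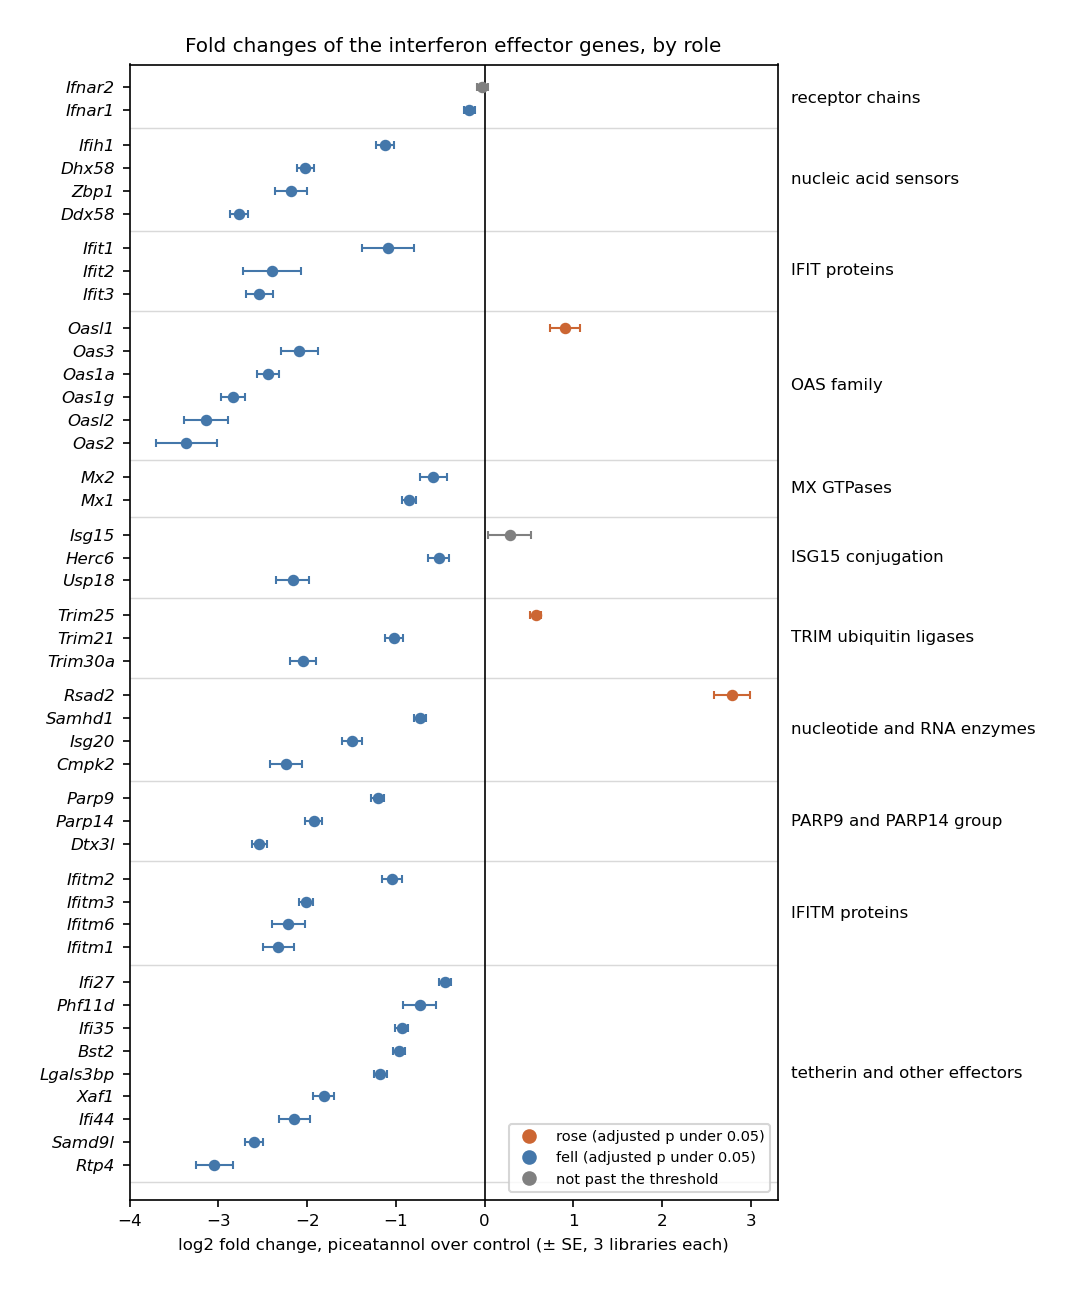
Log2 fold change of each of the 43 genes, piceatannol over control, with its standard error (edgeR, 3 libraries each), grouped by role. Of these points 38 lie left of 0 as falls, Rsad2, Oasl1 and Trim25 lie right of 0 as rises, and Isg15 and Ifnar2 are grey because they did not pass the threshold.

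The libraries held 33276569 to 58697084 counts, and the lowest count of any member in a control library was 329, for Phf11d. The 8 macrophage markers summed to 18595 to 22569 CPM in control and 13197 to 14672 CPM with piceatannol. Most of this was Lyz2, with means of 14876 and 10224 CPM. Of the 8 markers 6 fell and 2 rose, beside 38.3% and 38.8% of all tested genes. Falls ran from 1.27-fold (Mertk) to 10.2-fold (Fcgr1, 226 to 22.3 CPM on average). The rises were those of Cd14 (3.80-fold) and Cd68 (2.16-fold). Marker sums of other cell types moved with treatment. Neutrophil markers (7 of 7 tested fell) summed to 254 to 600 CPM in control and 34.0 to 41.1 CPM with piceatannol. Fibroblast markers (4 of 6 fell) summed to 2183 to 2437 and 506 to 567 CPM, and conventional dendritic cell markers (5 of 7 fell, 1 rose) to 1585 to 1714 and 818 to 1017 CPM. Markers of plasmacytoid dendritic cells, the strongest interferon producers known, summed to 65.0 to 66.7 CPM in control and 69.3 to 75.7 CPM with piceatannol (3 of 5 tested fell, 2 rose). Most of this was Tcf4 (means of 23.4 and 29.8 CPM) and Il3ra (27.8 and 38.3 CPM), the 2 that rose. The 3 that fell were Pacsin1 (10.3 to 2.82 CPM), Cox6a2 (2.97 to 1.48 CPM) and their defining gene Siglech. Siglech had 0.964 CPM on average in control and 0 counts in every piceatannol library. Markers of other blood cells were at lower levels and moved too. B cell markers (6 of 6 fell) summed to 13.8 to 21.4 CPM in control and 2.11 to 2.66 CPM with piceatannol, and mast cell and basophil markers (4 of 4 tested fell) to 9.93 to 15.4 and 5.98 to 7.23 CPM. T cell markers (3 of 4 tested fell, 1 rose) summed to 3.94 to 4.56 and 3.11 to 3.39 CPM. NK cell markers (1 of 1 tested fell) summed to 0.542 to 0.946 and 0.0605 to 0.123 CPM, and erythroid markers (1 of 1 tested rose) to 0.296 to 0.423 and 0.847 to 1.31 CPM. Mitochondrially encoded genes took 0.777% to 0.866% of counts in control and 1.87% to 2.65% with piceatannol. The part of these shifts in the results below was not tested, and in bulk RNA fewer cells of a type and less RNA per cell cannot be told apart.

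Promoter sequence was looked at first. The list was chosen for genes that interferon switches on, which ISGF3 does through the ISRE. A high share of ISRE cores among the members was therefore largely given in advance by that choice. RefSeq windows from 250 bases before to 50 bases after the start (GRCm38.p6, the build family named in the submitters' processing notes) were matched for 33 of the 43 members. Dhx58, Zbp1, Oas2, Mx1, Mx2, Usp18, Parp9, Parp14, Rtp4 and Ifi27 were not matched. The core of the ISRE was searched on both strands as GAAA, any 2 bases and GAAA, and the core of the interferon-gamma element GAS, which reads the same on both strands, as TTCNNNGAA. The ISRE core was found in 14 of the 33 members (42.4%), beside 3.99% of 27025 genes with a window of the same length and 3.94% of the tested genes among them. The GAS core was found in 10 of 33 (30.3%), beside 9.55% of all. Within the 200 bases before the start it was found in 4 of 33 (12.1%), beside 6.38% of all. Overlaps of an ISRE with a GAS match were found in Bst2 and Ifitm3. Of the members that fell 12 of 28 held the ISRE core, as did 1 of the 3 that rose (Rsad2) and 1 of the 2 that did not pass (Isg15). A longer form with CT after the core was found in 8 of the 28 that fell and 0 of the 3 that rose. It was in 0 of the 2 that did not pass and in 0.303% of all genes. These groups of 3 and 2 genes are too small for a comparison with those that fell. A match is a description of letters, and no match says only that these letters are not in the window.

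The stretches below, 80 bases each from RefSeq (GRCm38.p6), show the ISRE cores of 3 members from the ISG15, radical SAM and IFIT groups whose RNA went different ways, and of 4 that fell by different amounts. All lie before the annotated start, run 5′ to 3′ on the strand of the gene, and have the ISRE core in capitals.
Isg15 (chr4:156200846-156200925, minus strand): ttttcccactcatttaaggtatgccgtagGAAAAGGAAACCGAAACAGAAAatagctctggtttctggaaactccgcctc
Rsad2 (chr12:26456528-26456607, minus strand): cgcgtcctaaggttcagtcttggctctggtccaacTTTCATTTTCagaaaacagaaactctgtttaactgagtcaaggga
Ifit1 (chr19:34640759-34640838, plus strand): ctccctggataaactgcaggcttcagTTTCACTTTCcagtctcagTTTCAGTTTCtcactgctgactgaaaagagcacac
Ifit3 (chr19:34583355-34583434, plus strand): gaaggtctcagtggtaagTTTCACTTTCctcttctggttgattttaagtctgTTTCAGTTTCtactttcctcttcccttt
Oas1a (chr5:120907526-120907605, minus strand): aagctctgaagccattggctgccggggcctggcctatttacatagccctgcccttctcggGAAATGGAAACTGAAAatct
Oas3 (chr5:120777690-120777769, minus strand): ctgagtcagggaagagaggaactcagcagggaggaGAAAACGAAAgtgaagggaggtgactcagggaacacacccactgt
Bst2 (chr8:71537555-71537634, minus strand): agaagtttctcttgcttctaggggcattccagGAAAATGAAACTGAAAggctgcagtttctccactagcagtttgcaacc

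Isg15, which did not pass the test, holds 3 overlapping cores between positions -78 and -57 from the start. Rsad2, which rose, holds 1 core between -120 and -111, on the opposite strand. Ifit1 holds 2 cores, at -104 to -95 and -85 to -76, and Ifit3 holds 2, at -156 to -147 and -122 to -113, all on the opposite strand. Bst2 holds 2 overlapping cores from -130 to -115, the Oas1a cores end 5 bases before the start (-20 to -5) and Oas3 has 1 core at -75 to -66. Among the genes shown, which all hold a core, the number of cores did not separate those that fell from the others. It was 3 in Isg15, 2 in Ifit1, Ifit3, Oas1a and Bst2, and 1 in Oas3 and Rsad2.

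**Figure D2:**
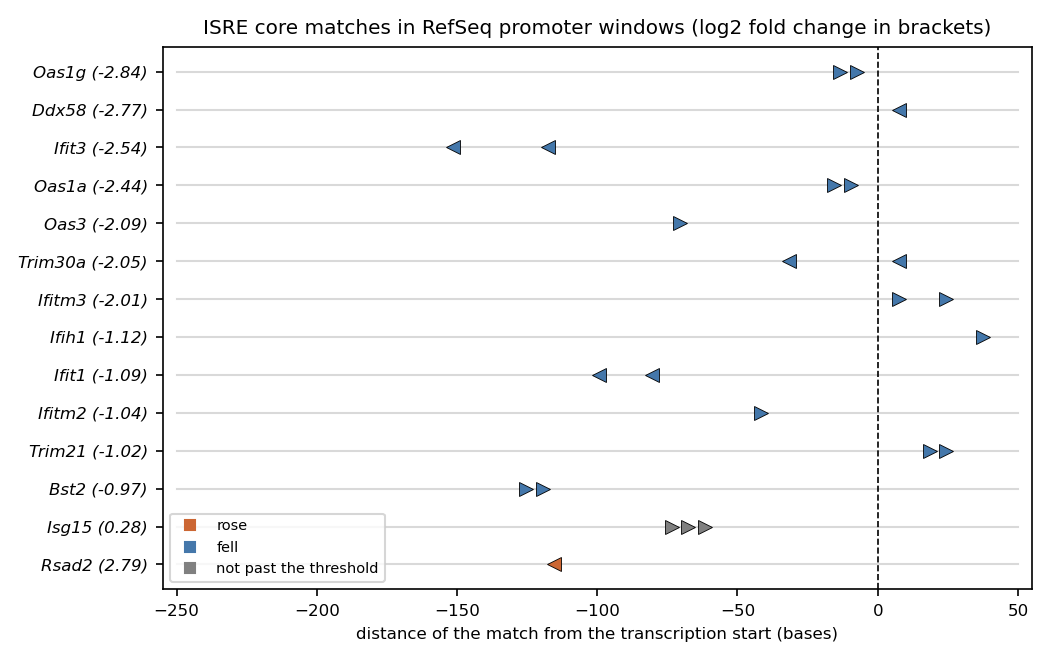
Position of each ISRE core match (marker, pointing right for the strand of the gene and left for the other strand) relative to the transcription start in bases, for the 14 members with a match, ordered by log2 fold change. Matches lie from -156 in Ifit3 to 42 in Ifih1, and Rsad2 (2.79) and Isg15 (0.28) hold the core, as do 12 members that fell. The longer form with CT after the core was found in 8 members that fell and in neither Rsad2 nor Isg15. Too few members that did not fall hold a core for this absence to be compared. The 2 markers of Trim30a belong to 2 annotated starts.

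The receptor chains changed least. Ifnar1, the chain that binds Tyk2 (GENCODE M21 on GRCm38, chr16:91485238-91507441), had 148, 153 and 145 CPM in control and 125, 139 and 133 CPM in piceatannol libraries. Its fall of 1.13-fold was small (log2 fold change -0.17 ± 0.06 SE, edgeR adjusted p = 0.0119), and the groups did not overlap. The call was lost with upper-quartile scaling (adjusted p = 0.0776), with a stricter filter (0.0724) and without piceatannol replicate 1 (0.0594). Ifnar2, the chain that binds Jak1 (chr16:91372783-91405589), had 82.1, 78.8 and 84.6 CPM in control and 82.2, 79.1 and 79.8 CPM in piceatannol libraries, and the groups overlapped (log2 fold change -0.03 ± 0.06 SE, edgeR adjusted p = 0.696). Per gene length both chains stood at like levels, 25.3 and 24.6 FPKM in control and 22.1 and 23.8 FPKM with piceatannol.

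All 4 nucleic acid sensor genes fell. Ddx58, which encodes RIG-I, a sensor of RNA with a triphosphate end (chr4:40203773-40239828), had 112, 97.5 and 131 CPM in control and 17.9, 15.1 and 16.9 CPM in piceatannol libraries. It fell 6.81-fold (log2 fold change -2.77 ± 0.10 SE, edgeR adjusted p = 8.99e-12), the largest fall of the sensors. Ifih1, of the long double-stranded RNA sensor MDA5 (chr2:62595798-62646255), had 54.0, 44.3 and 57.8 CPM in control and 26.2, 20.8 and 24.6 CPM in piceatannol libraries, a fall of 2.18-fold, the smallest of the sensors. Dhx58, of the regulator LGP2 that lacks signalling domains (chr11:100694884-100704271), had 70.9, 68.0 and 89.7 CPM in control and 18.5, 18.6 and 19.3 CPM in piceatannol libraries and fell 4.06-fold. The sensor of Z-form nucleic acid Zbp1, which can start necroptosis (chr2:173206612-173218923), had 54.2, 54.7 and 73.4 CPM in control and 14.9, 10.5 and 14.6 CPM in piceatannol libraries and fell 4.53-fold. The lowest control library lay above the highest piceatannol library for each of these genes, and the edgeR adjusted p values were at or below 1.41e-05.

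The 3 IFIT genes, which encode proteins that bind foreign RNA ends, all fell, by unequal amounts. They lie on chromosome 19 with gaps of 7111 and 52139 bases between them. Ifit2 (chr19:34550694-34576419) had 40.4, 32.6 and 54.4 CPM in control and 11.02, 5.66 and 7.39 CPM in piceatannol libraries, a fall of 5.26-fold (edgeR adjusted p = 0.00199). Ifit3 (chr19:34583531-34588731) had 17.8, 14.3 and 22.1 CPM in control and 2.99, 2.97 and 3.36 CPM in piceatannol libraries and fell 5.81-fold (edgeR adjusted p = 3.57e-11). For these 2 genes every control value was more than the highest piceatannol value by a wide margin. Ifit1 (chr19:34640871-34650009), which binds RNA caps without 2′-O methylation, had 28.0, 23.3 and 37.6 CPM in control and 18.6, 10.5 and 12.6 CPM in piceatannol libraries. The groups did not overlap, but piceatannol replicate 1 came near control replicate 2, and the fall of 2.13-fold (log2 fold change -1.09 ± 0.30 SE) passed with an edgeR adjusted p = 0.0222. That call was lost without control replicate 1 (adjusted p = 0.0577), without piceatannol replicate 2 (0.0528), without piceatannol replicate 3 (0.0834) and with no filter (0.0514). Ifit3 has a near-identical copy, Ifit3b (named after its values were seen), which fell too (-2.03), and reads of 1 copy may have been assigned to the other.

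OAS proteins sense double-stranded RNA and make 2′-5′ linked oligoadenylates as a second messenger, while some OAS-like proteins lack this activity. Of the 6 genes 5 fell and Oasl1 rose. Oas2 (chr5:120730333-120749853) had 67.5, 50.5 and 93.5 CPM in control and 7.05, 4.90 and 8.31 CPM in piceatannol libraries, the largest fall of all 43 genes at 10.3-fold (log2 fold change -3.36 ± 0.34 SE, edgeR adjusted p = 0.000658). Its control values spread widely, with replicate 3 highest, yet the lowest of them was far above every piceatannol value. Oasl2 fell 8.84-fold, Oas1g 7.15-fold, Oas1a 5.43-fold and Oas3 4.25-fold, with no overlap between groups. Oas1a and Oas1g are close copies in a cluster on chromosome 5, so reads may be shared between them.

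Oasl1, whose product is known to block translation of Irf7 and so restrain interferon production (chr5:114923240-114937915), had 10.1, 9.77 and 15.4 CPM in control and 22.7, 19.9 and 23.8 CPM in piceatannol libraries. It rose 1.87-fold (log2 fold change 0.91 ± 0.17 SE, edgeR adjusted p = 0.000692) while its neighbour Oasl2, 11005 bases away and read in the same direction, fell. Counts of Oasl1 per count of Oasl2, a ratio that no library scaling can alter, were 0.0630, 0.0731 and 0.0698 in control and 1.02, 1.18 and 1.24 in piceatannol libraries.

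Enzymes that act on nucleotides and RNA held the largest rise. Rsad2 encodes viperin, a radical SAM enzyme that makes a chain-terminating nucleotide (chr12:26442746-26456452). It had 29.9, 23.8 and 36.8 CPM in control and 246, 186 and 195 CPM in piceatannol libraries. The rise was 6.91-fold (log2 fold change 2.79 ± 0.21 SE, edgeR adjusted p = 7.87e-05), and only 2.97% of tested genes had a higher log2 fold change. Cmpk2, of a mitochondrial nucleotide kinase thought to supply viperin with substrate, lies head to head with Rsad2 on chromosome 12, 12751 bases away (chr12:26469204-26479837). It had 16.4, 12.3 and 18.5 CPM in control and 3.92, 2.42 and 3.56 CPM in piceatannol libraries and fell 4.72-fold (log2 fold change -2.24 ± 0.18 SE, edgeR adjusted p = 8.63e-08). In control the 2 genes kept nearly 1 ratio, since Rsad2 had 1.83, 1.94 and 1.99 counts for each of Cmpk2, and with piceatannol the ratio was 62.7, 77.0 and 54.8.

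The other 2 enzymes of this group fell. Isg20, an exonuclease of single-stranded RNA (chr7:78913424-78920396), had 15.9, 17.0 and 19.8 CPM in control and 6.77, 5.81 and 6.12 CPM in piceatannol libraries and fell 2.82-fold. Samhd1, which breaks down deoxynucleotides (chr2:157097533-157135265), had 414, 384 and 443 CPM in control and 233, 265 and 251 CPM in piceatannol libraries and fell 1.66-fold. Neither gene overlapped between groups (edgeR adjusted p = 1.52e-10 and 4.05e-09).

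**Figure D3:**
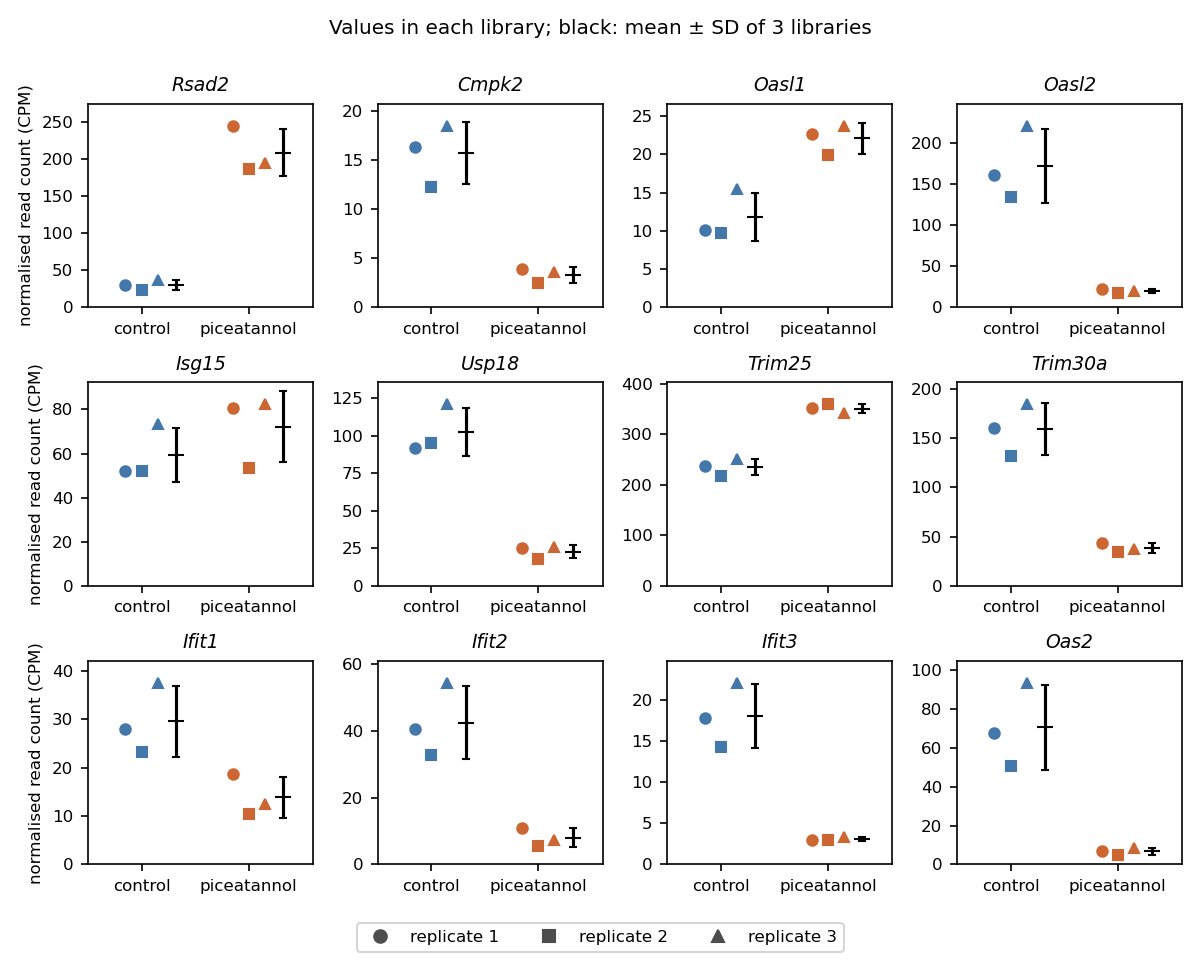
Normalised read counts (CPM, axes from 0) of 12 members in each library, with symbols for replicates 1, 2 and 3 and black bars for mean ± SD of 3 libraries. Rsad2 and Cmpk2, and Oasl1 and Oasl2, are neighbours that moved in opposite directions; Isg15 overlaps between groups, and piceatannol replicate 2 is its lowest piceatannol value.

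The MX GTPases, which trap viral nucleocapsids and are encoded by defective alleles in most inbred strains, fell less than most members. Mx1 (chr16:97447035-97462907) had 124, 109.7 and 137 CPM in control and 63.5, 70.5 and 71.7 CPM in piceatannol libraries, a fall of 1.81-fold. Mx2 (chr16:97535308-97560900), annotated as a polymorphic pseudogene, had 13.0, 10.3 and 16.8 CPM in control and 9.78, 7.96 and 9.17 CPM in piceatannol libraries, a fall of 1.49-fold (edgeR adjusted p = 8.69e-09 and 0.00375). Groups did not overlap for either, though control replicate 2 and piceatannol replicate 1 of Mx2 lay close together.

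Genes of the ISG15 system split. Isg15 encodes a ubiquitin-like protein that is attached to other proteins (chr4:156199424-156200818), and had 52.2, 52.2 and 73.4 CPM in control and 80.5, 53.6 and 82.4 CPM in piceatannol libraries. The groups overlapped, since control replicate 3 and piceatannol replicate 2 stood apart from the other libraries of their groups, and the test was not passed (log2 fold change 0.28 ± 0.24 SE, edgeR adjusted p = 0.335). Without piceatannol replicate 2 it passed as a rise of 0.45 on the log2 scale (adjusted p = 0.0235). Usp18, the protease that removes ISG15 and also blocks the receptor at Ifnar2 (chr6:121245906-121270917), had 91.9, 95.3 and 121 CPM in control and 25.1, 17.6 and 25.8 CPM in piceatannol libraries and fell 4.48-fold (edgeR adjusted p = 5.05e-05). Herc6, the mouse ISG15 ligase (chr6:57581000-57664632), had 26.9, 22.4 and 32.7 CPM in control and 20.9, 18.2 and 18.4 CPM in piceatannol libraries and fell 1.43-fold (edgeR adjusted p = 0.00113). The activating and conjugating enzyme genes Uba7 (-2.10) and Ube2l6 (-1.91), which are not among the 43 and are named after their values were seen, fell as well.

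Of the 3 TRIM ubiquitin ligase genes, 2 fell and 1 rose. Trim25, which activates RIG-I by ubiquitination (chr11:88999376-89020293), had 237, 217 and 250.5 CPM in control and 351, 359.7 and 342 CPM in piceatannol libraries, a rise of 1.49-fold (log2 fold change 0.58 ± 0.06 SE, edgeR adjusted p = 5.04e-08). The lowest piceatannol value lay well above the highest control value. Trim21, a cytosolic antibody receptor (chr7:102557921-102565486), had 21.9, 22.4 and 27.6 CPM in control and 10.9, 11.5 and 13.0 CPM in piceatannol libraries and fell 2.03-fold. Trim30a, a brake on NF-kB signalling in mouse (chr7:104409025-104465193), had 160.0, 132 and 184 CPM in control and 43.6, 34.0 and 37.4 CPM in piceatannol libraries and fell 4.14-fold. Trim25 and Ddx58, the gene of its substrate, moved in opposite directions.

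Genes of the PARP9 and DTX3L complex, which modifies histones, fell with Parp14. Dtx3l, the ubiquitin ligase of the pair (chr16:35926511-35939151), had 97.1, 83.4 and 107 CPM in control and 16.2, 16.7 and 16.5 CPM in piceatannol libraries, a fall of 5.82-fold (log2 fold change -2.54 ± 0.08 SE, edgeR adjusted p = 9.05e-16). Parp9 (chr16:35938470-35972605), which starts head to head with Dtx3l and overlaps it by 682 bases, had 69.7, 65.5 and 77.7 CPM in control and 31.6, 28.6 and 32.1 CPM in piceatannol libraries and fell 2.31-fold. The 2 genes share a start region, and their log2 fold changes were -2.54 and -1.21; the difference was not tested. An antisense gene in Parp9, Gm15564, held 12830 counts over the 6 libraries beside 14991 of Parp9, and the strand setting of the counting is not given, so the value of Parp9 is uncertain. Gm49730, which overlaps Parp14, is absent from the deposited table. The remaining genes that overlap a member, the Parp9 and Dtx3l pair apart, held at most 133 counts each over the 6 libraries. Among them Gm45717 shares 1101 bases with Ifitm2 on the same strand and held 0 counts. Low counts cannot show whether reads in such shared bases were lost to the member. Parp14, a mono-ADP-ribosyltransferase (chr16:35832874-35871544), had 208, 177 and 237 CPM in control and 58.0, 50.8 and 54.9 CPM in piceatannol libraries and fell 3.81-fold.

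The IFITM genes, whose membrane proteins stop virus fusion at the cell surface and in endosomes, are clustered on chromosome 7 and all fell. Ifitm3 (chr7:141009586-141010770) had 611, 586 and 728 CPM in control and 162, 151 and 163 CPM in piceatannol libraries, a fall of 4.04-fold (log2 fold change -2.01 ± 0.08 SE, edgeR adjusted p = 1.17e-14). Ifitm1 (chr7:140967221-140969825) had 853, 1017 and 964 CPM in control and 155, 238 and 174 CPM in piceatannol libraries and fell 5.01-fold. These 2 were the most abundant members per length, and control values stood above all piceatannol values by several-fold. Ifitm6 (chr7:141015699-141017924), found mainly in myeloid cells, had 15.5, 14.5 and 18.2 CPM in control and 3.49, 4.69 and 2.44 CPM in piceatannol libraries and fell 4.64-fold. Ifitm2 (chr7:140954837-140955987) had 43.2, 48.9 and 48.0 CPM in control and 18.9, 27.4 and 22.0 CPM in piceatannol libraries and fell 2.06-fold, the least of the family. The family shares sequence, so part of its reads may be split between genes.

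The other 9 effector genes all fell, by 1.36-fold (Ifi27) to 8.26-fold (Rtp4), with no overlap between groups. Over all tested genes 38.3% fell, and for 39.2% every piceatannol value lay below every control value. Rtp4, a negative regulator of interferon responses (chr16:23520291-23614222), had 63.3, 54.5 and 86.1 CPM in control and 9.12, 6.96 and 8.50 CPM in piceatannol libraries, a log2 fold change of -3.05 ± 0.21 SE (edgeR adjusted p = 1.74e-05). The inhibitor of translation in infected cells Samd9l (-2.60 as log2 fold change), Ifi44 (-2.15) and the pro-apoptotic gene Xaf1 (-1.82) fell by more than 2-fold, as did Lgals3bp (-1.17), of a secreted galectin-binding protein. Bst2, of tetherin, which holds budding virions at the membrane, fell from 362 ± 31.6 to 185 ± 9.28 CPM (SD, n = 3 each; -0.97). Ifi35 (-0.94), Phf11d (-0.73) and the mitochondrial protein gene Ifi27 (-0.45) fell least. Bst2 is also a surface marker of plasmacytoid dendritic cells, whose other markers are given above.

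Levels can be compared between genes only per length, as FPKM. In control Ifitm3 (947 FPKM), Ifitm1 (864), Bst2 (401) and Lgals3bp (251) were highest and Phf11d (2.04) lowest. The median member stood at 18.0 FPKM in control and 5.15 FPKM with piceatannol, and the number of members under 5 FPKM went from 6 to 21. The order of levels is loose, since for 37 of the 42 neighbouring pairs in control and 31 of 42 with piceatannol the ranges over 3 libraries overlapped, Ifitm3 and Ifitm1 in control among them. Rsad2 moved most in this order, from place 35 in control (6.96 FPKM) to place 7 (47.5 FPKM), and Oasl2 fell from place 16 to 30. Isg15 held place 5 in both groups.

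**Figure D4:**
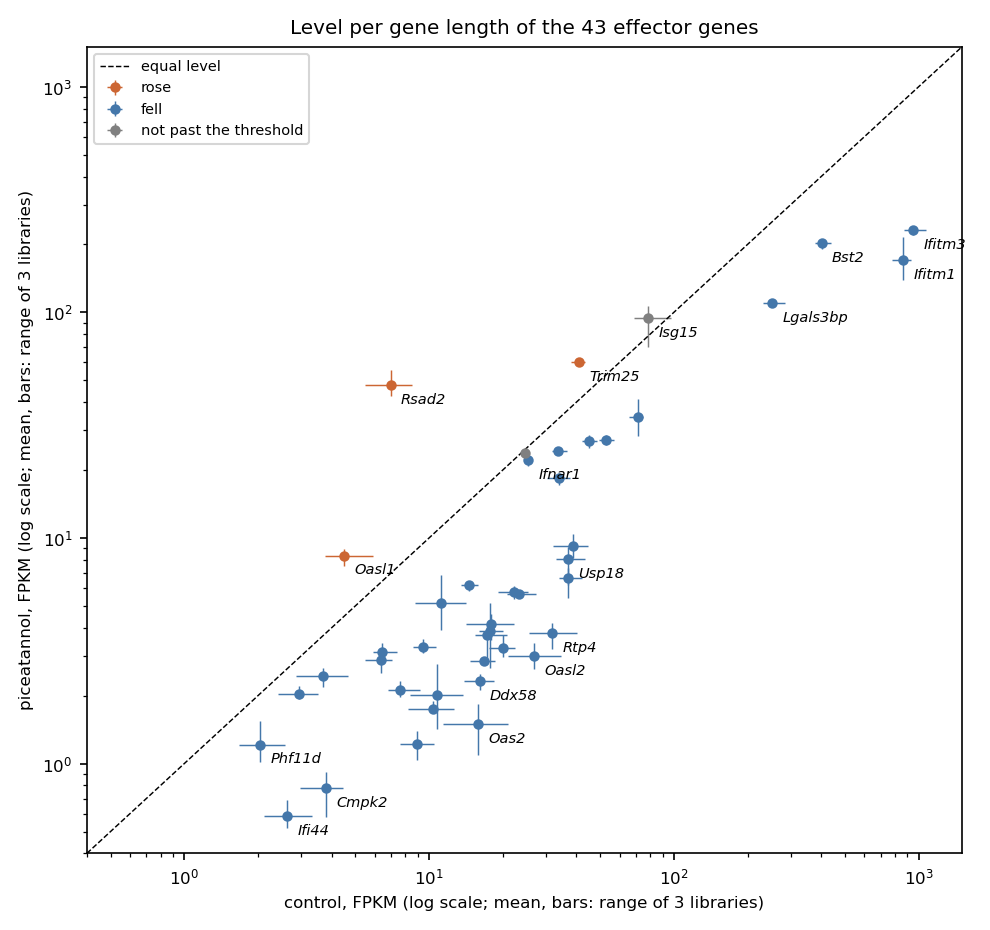
Mean FPKM of each of the 43 genes in control (x axis) and piceatannol libraries (y axis), both log scales, with bars for the range of 3 libraries and a dashed line of equal level. The abundant genes Ifitm3, Ifitm1, Bst2 and Lgals3bp lie below the line with most others, while Rsad2, Oasl1 and Trim25 lie above it.

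The members also varied together within groups. In control, replicate 3 had the highest CPM for 39 of the 43 members and replicate 2 the lowest for 32, where replicate 3 was highest for 30.3% and replicate 2 lowest for 36.6% of all tested genes. With piceatannol, replicate 2 was lowest for 29 members, beside 36.7% of all tested genes. The median coefficient of variation of members was 14.6% in control and 10.4% with piceatannol, and for 12520 tested genes with a mean of at least 1 CPM it was 5.78% and 6.84%. It ranged among members from 2.74% (Ifnar1) to 30.8% (Oas2) in control. Since control replicate 3 was high, the fit was repeated without it: 38 members fell, 3 rose, and the median log2 fold change was -1.66.

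Genes of the interferon ligands were hardly detected. Of 21 ligand genes 13 had 0 counts in all libraries, and no ligand had more than 18 counts in a library. Ifnb1, of interferon beta, was counted 7, 3 and 0 times in control and 8, 1 and 14 times with piceatannol and did not pass the filter on low counts. The groups overlapped, and the depth-scaled ratio of summed counts was 2.89 with a 95% interval of 1.32 to 6.80 that covers counting error only, with no test over libraries. Ifnab, named after its values were seen, was the 1 ligand gene tested. It was counted 2, 0 and 0 times in control and 11, 13 and 18 times with piceatannol. Scaled for depth, its counts were 26.4 times as high, with a 95% interval of 6.86 to 225 (exact binomial, counting error only; edgeR adjusted p = 3.07e-05). Ifnab passed the filter on low counts only through the piceatannol libraries, where it was high. Neither the interval nor the p-value can therefore be taken as support for a rise. Interferon alpha genes are near-identical copies, so its reads are uncertain.

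Downstream of the receptor, the signalling genes Tyk2, Stat2 and Irf9 fell. The kinase gene Tyk2 had 256, 269.8 and 281 CPM in control and 115, 124 and 135 CPM in piceatannol libraries and fell 2.16-fold (edgeR adjusted p = 3.82e-12). The log2 fold changes of Stat2 and Irf9, which encode ISGF3 subunits, were -0.97 and -0.67, while Jak1 (0.13, adjusted p = 0.0567) did not pass. With the replicate number as a block Jak1 passed as a rise (adjusted p = 0.0307), as it did without piceatannol replicate 3 (0.0376). Of 19 genes that sense nucleic acid or induce interferon 12 fell and 5 rose. These shares were 63.2% and 26.3%, beside 38.3% and 38.8% of all tested genes. The largest falls were those of the double-stranded RNA receptor gene Tlr3 (-2.60) and of Tmem173 (-2.27), which encodes the adaptor STING, and the largest rises those of the signalling genes Traf6 (0.94) and Tbk1 (0.55). Irf7, the amplifier of interferon alpha production, had 91.9, 87.0 and 141 CPM in control and 26.7, 23.2 and 29.0 CPM in piceatannol libraries and fell 4.05-fold, and Irf1 fell 1.35-fold. With the block a sixth rise was called in this list, Irf3, from 0.14 with an adjusted p = 0.0755 to an adjusted p = 0.0180, and it is named after its values were seen; it passed under 4 other alternatives as well.

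Of 16 negative regulators tested 7 rose and 7 fell (43.8% each), near the 38.8% and 38.3% of all tested genes. Socs3, an inhibitor of cytokine receptors, rose most (1.85 as log2 fold change), followed by Nlrc3 (1.30), while Ptpn6, of the phosphatase SHP-1, fell from 411 ± 18.5 to 48.1 ± 3.94 CPM (SD, n = 3 each; -3.09) and Rnaseh2b, of an enzyme that removes RNA from DNA, fell by less (-1.06). Socs1, the main brake on interferon receptor signalling, had 48.4, 50.2 and 52.1 CPM in control and 51.3, 60.0 and 62.7 CPM in piceatannol libraries, with overlap between groups. Its rise (log2 fold change 0.21 ± 0.07 SE, edgeR adjusted p = 0.0151) was lost under 6 alternatives. Among these 6 were DESeq2 (0.0505) and the fits without control replicate 1 (0.0667), piceatannol replicate 2 (0.0534) or piceatannol replicate 3 (0.0979). Trex1, named after its values were seen, was listed at 0 in every library.

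Further interferon-stimulated genes outside the 43 included 59 that were tested, of which 48 fell and 6 rose. The shares were 81.4% and 10.2%, beside 38.3% and 38.8% of all tested genes. Their median log2 fold change was -1.62. Ifit1bl1 (-4.91) and Ms4a4c (-4.17) were the largest falls with a mean of at least 1 CPM. Eif2ak2, of the kinase PKR that halts translation, fell 3.62-fold. Cxcl10, a chemokine gene, had 18.6, 18.5 and 25.3 CPM in control and 79.6, 33.5 and 60.1 CPM in piceatannol libraries and rose 2.78-fold (edgeR adjusted p = 0.0218), a call lost without control replicate 1 (adjusted p = 0.0771), control replicate 2 (0.0750) or piceatannol replicate 3 (0.0660). Helz2, of a helicase, rose by 0.52 on the log2 scale.

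**Figure D5:**
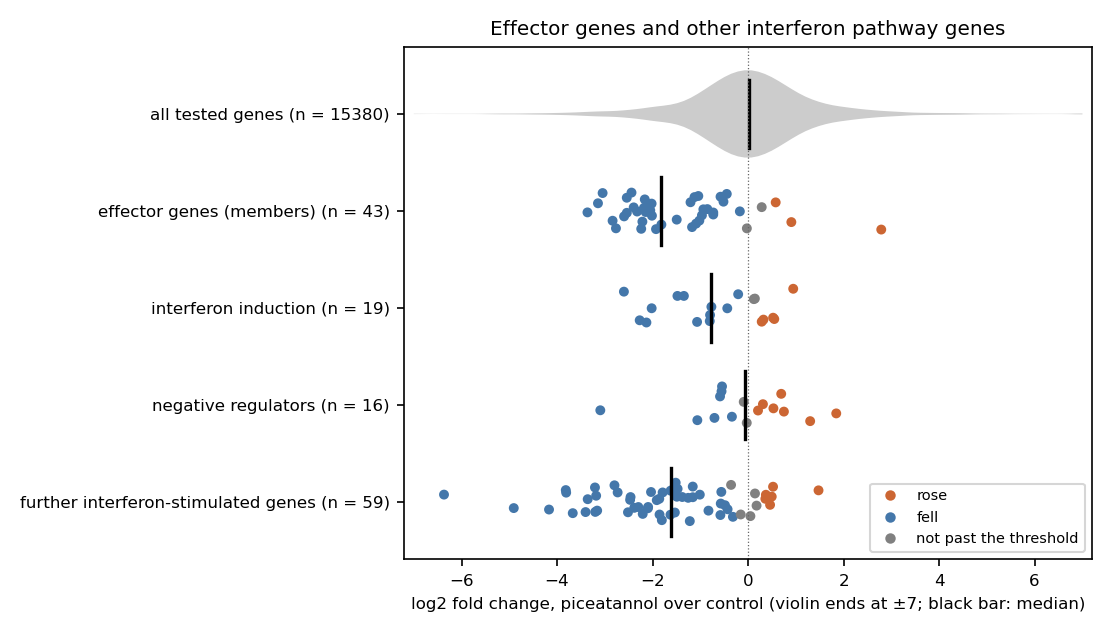
Log2 fold change of the 43 effector genes and of 3 lists of other interferon pathway genes, 1 point per tested gene, with a black bar for the median and the distribution of all 15380 tested genes above. The members and the further interferon-stimulated genes lie mostly left of 0 (medians -1.82 and -1.62), the negative regulators on both sides (-0.06).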

How the data were processed

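RNA was measured by sequencing in 6 libraries, 3 control and 3 piceatannol, grouped by their titles. The authors deposited 1 table of whole read counts by gene symbol and 1 of FPKM. The submitters' processing notes list bcl2fastq, STAR, featureCounts and DESeq2 and the builds mm10 and GRCm38. Gene annotation and strand setting are not stated there. RNA libraries were made from total RNA with an Illumina TruSeq kit, per the labels' protocols.

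The deposited counts were filtered with filterByExpr (minimum count 10), which left 15380 genes, scaled with TMM factors (0.985 to 1.02) and tested with edgeR 4.0.16 (robust quasi-likelihood test, no covariate, two-sided, Benjamini-Hochberg over all tested genes, threshold 0.05). Standard errors were |log2 fold change| over the root of the F statistic. CPM are counts scaled to the TMM-adjusted library total. The deposited FPKM were used for levels between genes and, with limma 3.58.1 on log2(FPKM + 1) and log2(FPKM + 0.1), as alternatives. The test was tested on simulated counts.

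The members and lists were chosen with earlier results of these data known. All members are named; those of role groups of 4 or fewer, and the largest rise and fall of larger groups, are given by library. Of other pathway lists, lists of 6 or fewer are named whole, otherwise the 2 largest rises and 2 largest falls past the threshold with at least 1 CPM, plus Ifnb1, Irf7, Irf1, Irf9, Stat2, Socs1 and Eif2ak2. Some genes of these lists are not reported here. Mnda and Pyhin1 of the list of further genes were not matched to a symbol.

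Libraries with the same replicate number deviated together from their group means (correlations over genes 0.160, 0.141 and 0.163, other pairs -0.140 to -0.000453). Deviations cancel within a group, so the values of the other pairs follow in part from the first and are no separate contrast. The replicate number was therefore also fitted as a block. Depth, 33276569 to 58697084 counts per library, limits the precision for genes with few counts. Other alternatives were RLE, upper-quartile and total scaling, DESeq2 1.42.0, limma-voom, a filter at 5 CPM in 3 libraries, omitting the filter, a threshold of 0.01, a required 2-fold change, and dropping 1 library at a time.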

Additional observations from a re-analysis of the deposited data

How the results depend on the processing

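Of 43 members, 40 kept their call and direction under all 16 alternative fits, and the exceptions, Ifnar1, Ifit1 and Isg15, are given with their values in the report; no member reversed. The count of members that fell lay between 37 and 38 and of those that rose between 3 and 4 over these fits (37 to 38 and 3 to 4 over the fits that leave out a library), with 36 and 3 at a threshold of 0.01. Requiring a 2-fold change left 29 and 1 members, 41 and 1 of the further interferon-stimulated genes, 7 and 0 of the induction genes, 2 signalling genes that fell, and 2 and 2 negative regulators. Jak1 alone moved the count of signalling genes that rose from 0 to 1, with upper-quartile scaling, the stricter filter, limma-voom, the replicate block and without piceatannol replicate 3 (0 to 1 over the fits that leave out a library). With the stricter filter the 1 ligand gene that rose was not tested, which left 0. The replicate block changed the call of 0 members and of 2 pathway genes, Jak1 (adjusted p = 0.0307) and Irf3. Pseudocount 1 on FPKM brought the median of members to -1.28, a scale that understates changes of low genes. The ISRE core with its flank was found in 8 member promoters in place of 14. Within the 200 bases before the start the ISRE core was found in 10 of 33 members (30.3%), beside 2.65% of all genes. The GAS core was found there in 4 members in place of 10 (12.1%), beside 6.38% of all genes. No scaling moved the median of all genes by over 0.1. Genes with few counts, the ligands above all, are limited by depth.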
